A study of Mus musculus with 6 samples.

Results

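The genes described here sense oxygen or answer to its lack. They are the transcription factor subunit Hif1a, the enzymes Egln1, Egln2 and Egln3 and the protein Vhl that control its stability, and 5 genes known as its targets, Bnip3, Adm, Ankrd37, Vegfa and P4ha1. Each probe set of the array whose platform annotation gave a single symbol, and that symbol was 1 of these 10, was taken as a member. This gave 19 probe sets of 10 genes, out of 45037 probe sets tested and 18193 gene symbols with a probe set of their own. More than 1 probe set was present for 7 genes, and 1 probe set of Hif1a had a mean below 5 log2.

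In cells with enough oxygen, the Egln enzymes hydroxylate prolines of Hif1a, and Vhl binds the hydroxylated protein and directs it to the proteasome. When oxygen is scarce the hydroxylation fails, Hif1a persists, pairs with Arnt and binds hypoxia response elements near genes of mitochondrial turnover, blood vessel growth and collagen modification. Egln1 and Egln3 are themselves targets, so the pathway carries its own feedback. Hif1a is controlled mainly at the level of the protein, which an expression array does not measure.

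The cells were clones of the mouse embryonic stem (ES) cell line EBRTcH3. They carried the coding sequence of human WBSCR1, without its UTRs and with a 3xFLAG epitope, behind a promoter that tetracycline represses, at the ROSA26 locus. The 3 separately derived clones, A1, A3 and A4, which are replicates 1, 2 and 3, were grown in medium with LIF. Induced cells spent 24 h without tetracycline and control cells (T0) stayed in it, and 1 Affymetrix array was hybridised for each clone and condition. There were thus 3 induced and 3 control arrays, all of transgenic cells, and the transgene cannot be told apart from the removal of tetracycline. Each clone was represented by 1 pair of arrays, so the spread between its arrays includes the condition. The labels name no oxygen level or hypoxic treatment. Because whole cultures were measured, fewer expressing cells and less RNA per cell cannot be told apart.

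Array medians lay between 5.11 and 5.19 on the log2 scale. The 8 ES cell markers had means of 10.86 to 14.05 log2, against 3.99 to 5.75 for 7 markers of differentiated derivatives and 2.67 to 7.11 for 8 markers of feeder fibroblasts. In A3, 1, 2 and 1 markers of these lists were called lower than in the other clones (6.32% of all genes) and 0 higher (5.13%). Those lower were Klf4 in the first list, Gata4 and Gata6 in the second and Twist1 in the third. The mean of the ES cell list lay between 12.13 and 12.43 log2 in all 6 arrays. The mouse gene Eif4h, the counterpart of the transgene, differed on induction by -0.27 to 0.07 log2 over 6 probe sets, none called (adjusted p = 1.00 for each). The value of -0.27 log2 came from the dimmest probe set, which read 3.08 to 3.91 log2. The others differed by 0.003 to 0.07 log2. The arrays of A3 stood apart from the rest over the whole genome, with 1752 probe sets called higher and 2557 lower than the mean of the other clones. They also had the smallest 3′ to 5′ difference of the actin control, 0.295 log2 in the induced and 0.316 log2 in the control array, against 0.403 to 0.451 in the arrays of A1 and A4. The Gapdh control did not set both arrays of A3 apart. Its difference was 0.078 log2 in the induced and -0.007 log2 in the control array of A3, against 0.054 to 0.104 log2 in those of A1 and A4. The 18S control probe sets averaged 7.03 (A1), 7.27 (A3) and 5.99 (A4) log2 in induced arrays, against 5.66, 6.61 and 5.99 log2 in control arrays. The part of these values in the results below was not tested.

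Bnip3, P4ha1, Egln3 and Egln1 carry the differences between clones given below, so the DNA before their transcription starts is shown first. The core of a hypoxia response element was searched as ACGTG and GCGTG on both strands, and overlapping matches, as in the palindrome of ACGTG with itself, were counted as 1 site. The sequences run 5′ to 3′ on the gene's strand, up to the base before the start annotated by RefSeq (GRCm38.p6), with matches to the core on either strand in capitals. Those of Egln1 (chr8:124949255-124949504), Egln3 (chr12:54203875-54204124) and Bnip3 (chr7:138909507-138909756) are on the minus strand and hold 250 bases. That of P4ha1 (chr10:59323046-59323196, plus strand) holds 151, because the last 99 lie within the annotated gene and are not shown.
Bnip3: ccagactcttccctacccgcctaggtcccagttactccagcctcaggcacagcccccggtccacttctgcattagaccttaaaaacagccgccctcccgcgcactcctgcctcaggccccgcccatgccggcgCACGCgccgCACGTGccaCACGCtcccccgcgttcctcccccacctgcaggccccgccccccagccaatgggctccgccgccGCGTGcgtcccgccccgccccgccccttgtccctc
P4ha1: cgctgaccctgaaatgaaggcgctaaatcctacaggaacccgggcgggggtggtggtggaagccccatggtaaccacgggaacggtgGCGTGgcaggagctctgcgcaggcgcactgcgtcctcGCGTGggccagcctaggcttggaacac
Egln3: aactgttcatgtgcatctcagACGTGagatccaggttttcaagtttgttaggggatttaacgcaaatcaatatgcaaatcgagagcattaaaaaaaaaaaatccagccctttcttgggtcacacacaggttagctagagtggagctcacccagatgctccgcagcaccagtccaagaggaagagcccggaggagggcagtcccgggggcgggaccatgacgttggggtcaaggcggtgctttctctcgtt
Egln1: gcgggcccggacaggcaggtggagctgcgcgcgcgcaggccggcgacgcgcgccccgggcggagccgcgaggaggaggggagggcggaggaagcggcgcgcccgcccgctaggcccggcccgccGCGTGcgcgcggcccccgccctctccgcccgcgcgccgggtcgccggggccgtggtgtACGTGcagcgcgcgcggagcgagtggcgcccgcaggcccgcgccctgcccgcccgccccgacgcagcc

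Bnip3 had 4 sites, of which 3 lay within a stretch from -117 to -95 (bases relative to the start), and the middle one was the palindrome. P4ha1 had sites from -163 and -126, shown above, and another from -16. Egln1 had sites from -126 and -68, and Egln3 a single site from -229. In windows of 250 bases before and 50 after each annotated start, a core in either form was found for 9 of the 10 genes and in 10 of their 12 windows, against 43.8% of 32851 mouse windows. The form ACGTG was found in 8 member windows, against 19.6% of all, and GCGTG also in 8, against 32.4%. Vhl had no match, and Vegfa had none at 1 of its annotated starts and 2 at the other. Among the other genes not called between clones, Egln2 had 5 sites at 1 start and 1 at the other. Ankrd37 had 3, and Hif1a and Adm had 2 each. The starts used for Hif1a, P4ha1 and Ankrd37 lie inside the annotated genes, and windows at the outer ends of these genes were not searched. A match describes the letters in the window and is not evidence of binding.

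**Figure D1:**
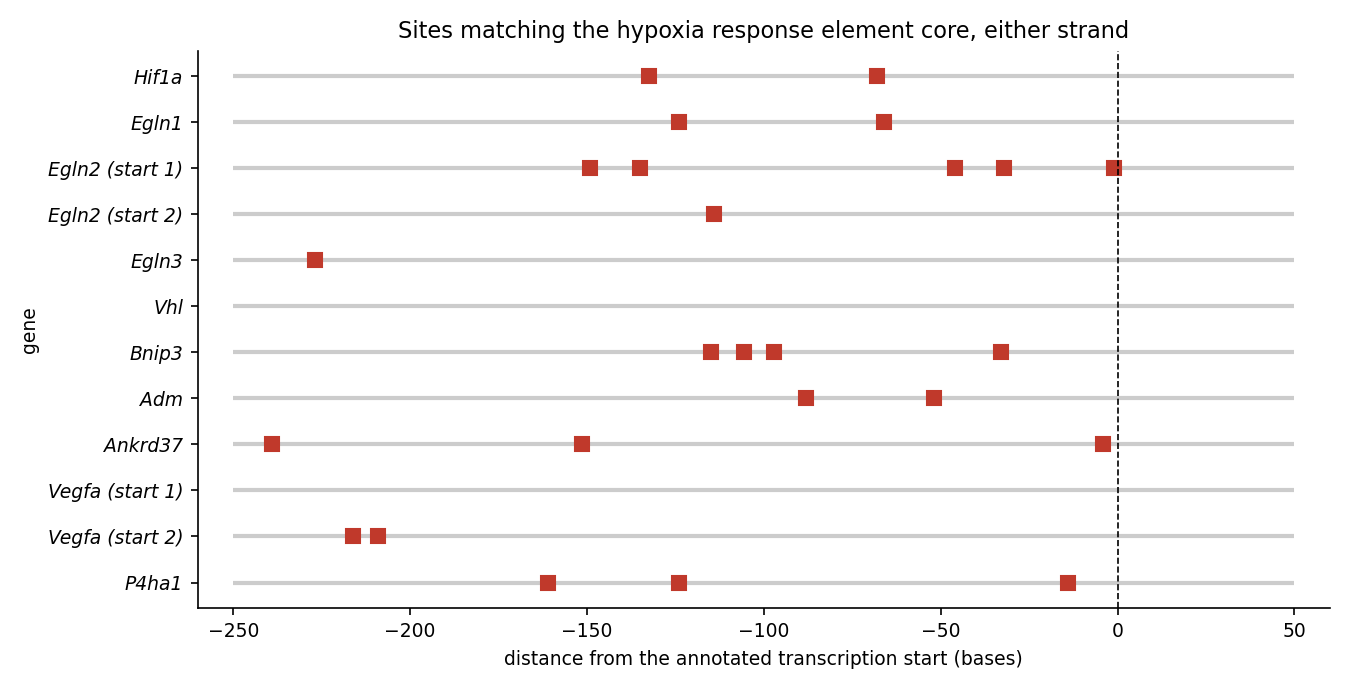
Sites that match the core of the hypoxia response element on either strand, by distance in bases from the annotated transcription start, which the dashed line marks. Each grey line is a window of 250 bases before and 50 after a start, and the 4 sites of Bnip3 all lie before the start.

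The clones differed in 4 of the 10 genes, and in each of them A3 was higher than the mean of A1 and A4. Relative to the mean of the other clones, A3 had 2.55-fold more Bnip3. P4ha1 was higher by 1.77-fold and 2.44-fold on its 2 probe sets, Egln3 by 1.85-fold on the brighter of 2, and Egln1 by 1.51-fold and 1.47-fold. Hif1a, Egln2, Vhl, Adm, Ankrd37 and Vegfa were not called between clones. The called probe sets were 1422470_at (Bnip3), 1452094_at and 1426519_at (P4ha1), 1418649_at (Egln3) and 1423785_at and 1451110_at (Egln1). By limma's F test over the clone terms, 6 of 19 member probe sets were called at an adjusted p of 0.05, against 5.54% of all probe sets. The same 6 were called higher in A3 by the contrast with the mean of both other clones, against 3.89% of all, and 0 were called lower, against 5.68%. With the brightest probe set of each gene, 4 of 10 genes were called by the F test and 4 as higher in A3, against 6.84% and 5.13% of all genes, and 0 as lower, against 6.32%. Between A1 and A4 no member was called, against 0.0178% of all probe sets. A1 minus A4 was nevertheless -1.06 log2 for Egln3 and -0.67 log2 for Egln1 on their brighter probe sets. A low A1 thus made up part of the differences of A3 in these genes. Without both arrays of A1 the F test called 3 members and 1883 of all probe sets, against 6 and 2496 with all 6 arrays. Without both arrays of A3 it called 0 members and 8 of all probe sets. Leaving out control replicate 1 or 2 left a clone with 1 array. The difference of A3 for the brighter probe set of Egln1 was then 0.48 and 0.46 log2, against 0.60 log2 with all arrays.

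**Figure D2:**
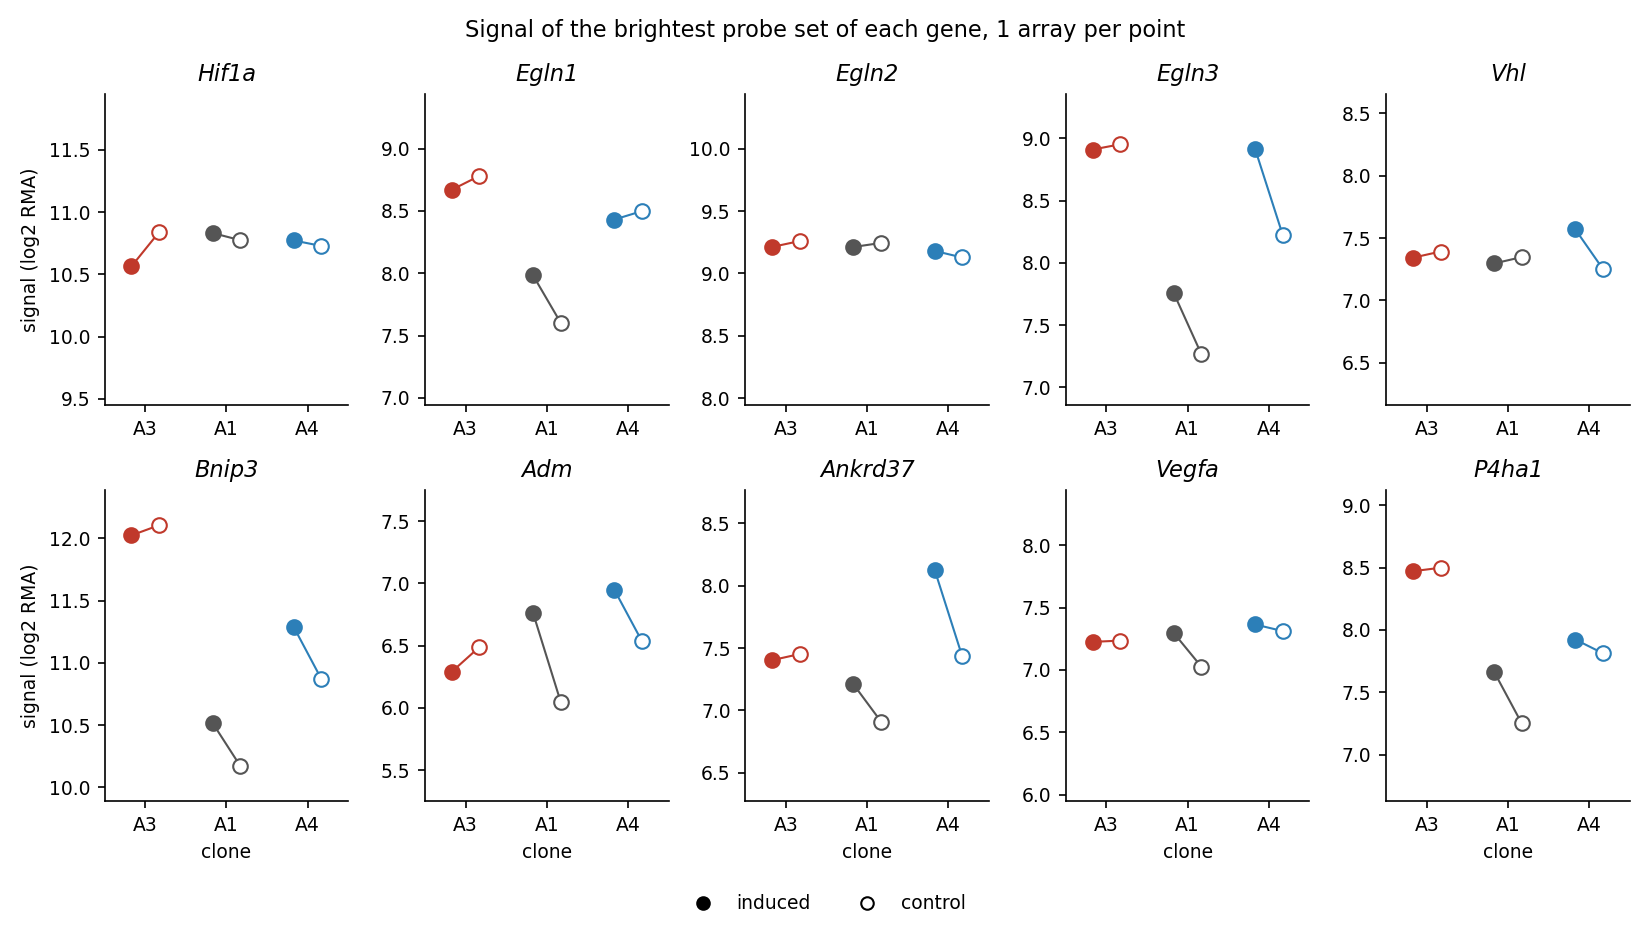
Signal in log2 RMA units of the brightest probe set of each gene by clone, 1 array per point, filled for induced and open for control. Every panel spans the same number of log2 units around its own centre. Bnip3, P4ha1 and Egln1 are highest in both arrays of A3 and lowest in both of A1, whereas the points of Hif1a and Egln2 lie close together.

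Bnip3, an outer mitochondrial membrane protein that marks mitochondria for autophagy, had the widest range, 1.93 log2. Its signals were 10.52 (A1), 12.02 (A3) and 11.29 (A4) log2 in induced arrays, against 10.17, 12.10 and 10.87 log2 in control arrays. The clones did not overlap, with A3 highest, A4 between and A1 lowest in both conditions. The difference of A3 from the mean of A1 and A4 was 1.35 ± 0.13 log2 (SE), with an adjusted p of 0.00120 (F test over clones, 0.00256). It was called in each of the 6 fits that left out 1 array, with values of 1.12 to 1.58 log2. A1 minus A4 was -0.73 ± 0.15 log2 and was not called (adjusted p = 0.801).

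P4ha1, a catalytic subunit of the collagen prolyl 4-hydroxylase of the endoplasmic reticulum, followed the same order on its brighter probe set. That probe set read 7.66 (A1), 8.47 (A3) and 7.92 (A4) log2 in induced arrays, against 7.25, 8.50 and 7.81 log2 in control arrays. The dimmer one read 6.05, 7.27 and 6.43 log2 in induced arrays, against 5.56, 7.34 and 6.04 log2 in control arrays. On both, the arrays of A3 lay above the other 4, and on the dimmer one the induced array of A1 was level with the control array of A4. The differences of A3 were 0.82 ± 0.12 and 1.29 ± 0.13 log2 (adjusted p = 0.00577 and 0.00168). The dimmer probe set was called in all 6 fits without an array, and the brighter one lost its call of A3 without control replicate 2, at 0.68 log2.

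The hydroxylases Egln1 and Egln3, which are also targets of the factor they control, were low in A1. Egln3 read 7.76 (A1), 8.91 (A3) and 8.92 (A4) log2 in induced arrays on its brighter probe set, against 7.27, 8.95 and 8.23 log2 in control arrays. Both arrays of A1 lay below the other 4, and the induced array of A4 was level with those of A3. The difference of A3 was 0.89 ± 0.15 log2 (adjusted p = 0.0111), while A1 minus A4 was -1.06 ± 0.17 log2 and was not called (adjusted p = 0.549). On the second probe set of Egln3 the F test gave an adjusted p of 0.0638, with 7.04, 7.73 and 8.21 log2 in induced arrays, against 6.97, 7.94 and 7.52 log2 in control arrays. There the highest array was the induced one of A4, and A1 was again below the other 4.

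Egln1, the main oxygen sensor among the Egln enzymes in most cells, read 7.98 (A1), 8.67 (A3) and 8.43 (A4) log2 in induced arrays, against 7.60, 8.78 and 8.50 log2 in control arrays. Its second probe set read 6.93, 7.92 and 7.92 log2 in induced arrays, against 7.19, 8.05 and 7.67 log2 in control arrays. Both placed A1 below the other clones, and only the first separated A3 from A4. The differences of A3 were 0.60 ± 0.13 and 0.55 ± 0.13 log2 (adjusted p = 0.0261 and 0.0324). Of the 6 fits without an array, the difference of A3 was called in 2 and 1 for these probe sets and in 3 for the brighter one of Egln3. For the brighter one of Egln1 it was lost without control replicate 1 (0.48 log2), control replicate 2 (0.46), induced replicate 2 (0.73) or induced replicate 3 (0.55). For Egln3 it was lost without control replicate 1 (0.85 log2), control replicate 2 (0.57) or induced replicate 1 (0.93). Without both arrays of A1, the remaining difference of A3 from A4 was 0.26 log2 for Egln1 and 0.36 log2 for Egln3, neither called.

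The rest of the sensing machinery was not called between clones. Hif1a read 10.83 (A1), 10.56 (A3) and 10.77 (A4) log2 in induced arrays on its brightest probe set, against 10.77, 10.84 and 10.73 log2 in control arrays. The difference of A3 was -0.07 log2 with a 95% interval from -0.33 to 0.18, and its other probe sets differed by -0.08 to 0.36 log2, none called. Egln2, a hydroxylase not known as a target of HIF, read 9.21, 9.21 and 9.18 log2 in induced arrays, against 9.24, 9.26 and 9.13 log2 in control arrays, with a difference of A3 of 0.04 log2 (95% interval -0.18 to 0.27). Vhl, the substrate receptor of the ubiquitin ligase, read 7.30, 7.34 and 7.57 log2 in induced arrays, against 7.35, 7.39 and 7.25 log2 in control arrays. Its difference of A3 was 0.00 log2 (95% interval -0.27 to 0.27), and 0.33 log2 on its dimmer probe set (adjusted p = 0.146).

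The other known targets did not share the order of Bnip3. Ankrd37, a small ankyrin repeat protein, read 7.21 (A1), 7.40 (A3) and 8.13 (A4) log2 in induced arrays, against 6.91, 7.45 and 7.43 log2 in control arrays. Both arrays of A1 were lowest and the induced array of A4 was highest, and the F test gave an adjusted p of 0.110. Vegfa, the growth factor of endothelial cells, read 7.30, 7.23 and 7.37 log2 in induced arrays, against 7.03, 7.24 and 7.31 log2 in control arrays (F test, adjusted p = 0.676). Adm, the precursor of the vasodilator peptide adrenomedullin, differed in A3 by -0.19 and -0.43 log2 on its 2 probe sets, neither called (adjusted p = 0.569 and 0.345).

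**Figure D3:**
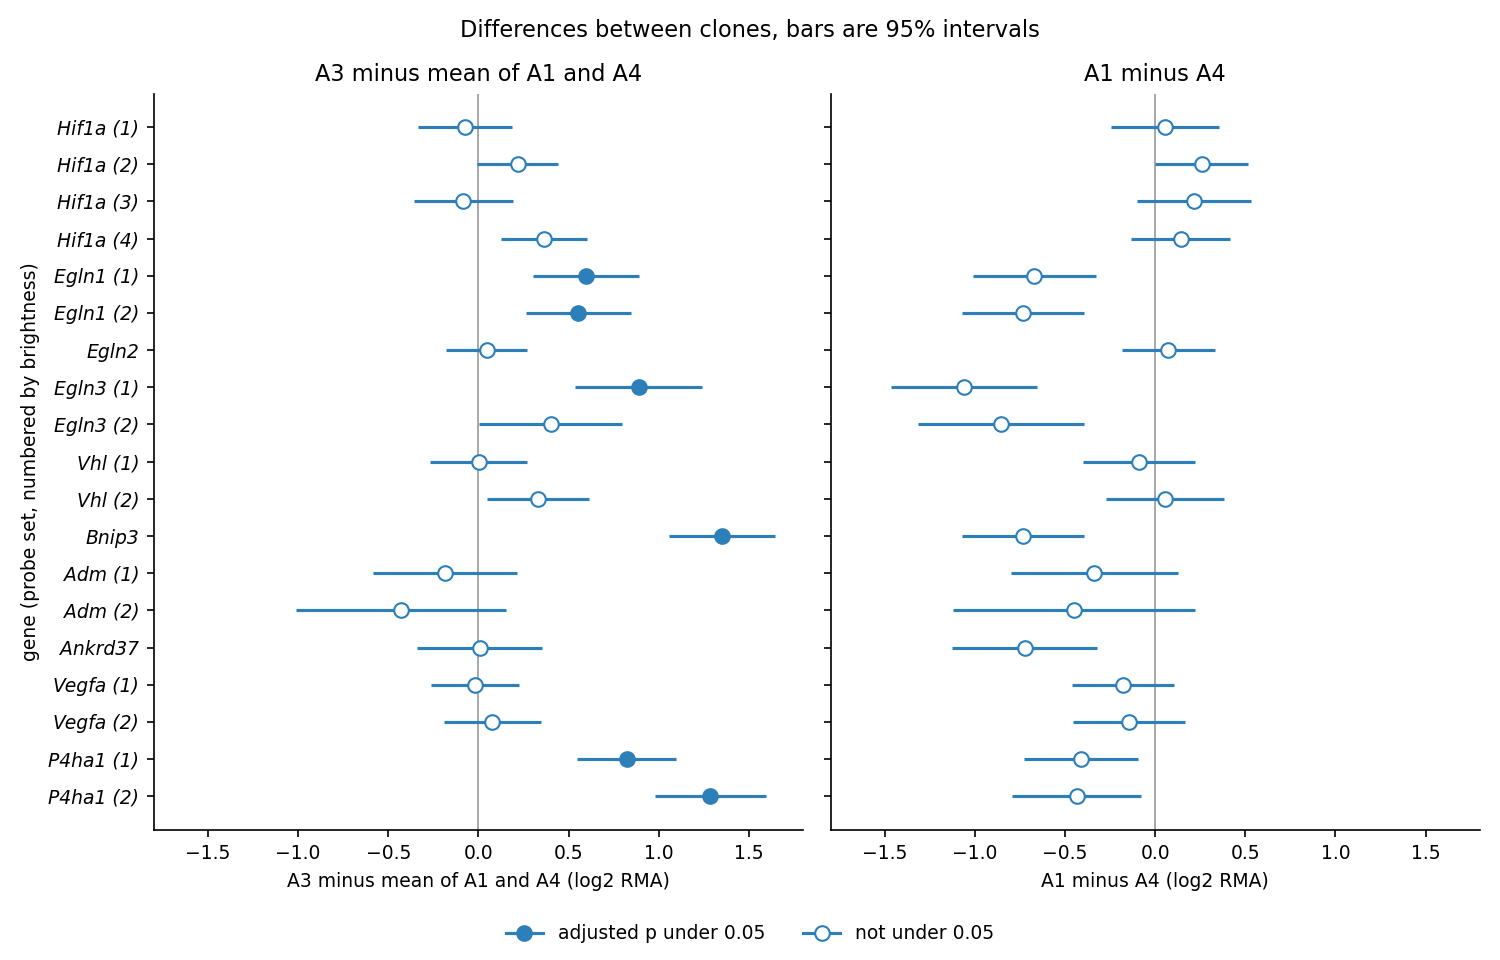
Difference in log2 RMA units of A3 from the mean of A1 and A4 (left) and of A1 from A4 (right) for each member probe set, with 95% intervals from limma and filled points where the adjusted p was under 0.05. The 6 filled points, of Egln1, Egln3, Bnip3 and P4ha1, are all on the left and above 0.

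Across all 19 probe sets, both arrays of A3 lay above the other 4 arrays for 7 (19.8% of all probe sets) and below them for 0 (16.6%). Both arrays of A1 lay below the other 4 for 7 (8.29%), and the arrays ran in the order A1, A4, A3 without overlap for 3, those of Bnip3, Egln1 and P4ha1 (3.45%). The control array of A1 was the lowest of the 6 for 10 of 19 (12.4%). Relative to each probe set's own mean, the median member stood at -0.13 (A1), 0.16 (A3) and 0.10 (A4) log2 in induced arrays, against -0.42, 0.11 and -0.08 log2 in control arrays. Over all probe sets the same medians lay between -0.02 and 0.02 log2. For all 6 called probe sets the gap of A3 over the mean of A1 and A4 was smaller in induced than in control arrays, for Bnip3 1.12 log2 in induced and 1.58 log2 in control arrays, and for Egln3 0.57 log2 in induced and 1.20 log2 in control arrays. That change of the gap was not tested, since each value rests on 1 array of a clone.

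On induction, no member changed in a way that the test could call. Higher mean signals were measured for most of the hypoxia targets, and these came from A1 and A4, while most were slightly lower in the induced array of A3. Of the 19 probe sets, 0 were called by limma between induced and control arrays at an adjusted p of 0.05, as were 0% of all probe sets, and 0 had an unadjusted p below 0.05, against 1.5% of all. On average, 14 were higher in induced arrays, against 48.8% of all probe sets, and the median member change was 0.10 log2, against 0.00 log2 for all. With the clone as a block, 1 member probe set, the brighter of Egln3, had an unadjusted p below 0.05, against 3.42% of all, and none was called after adjustment. Without control replicate 1, the lowest array for most members, the median member change was -0.03 log2 and the changes of Bnip3, P4ha1 and Egln3 were -0.21, -0.14 and -0.06 log2.

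The mean change of Egln3 on its brighter probe set was 0.38 ± 0.46 log2 (SE), with 8.53 ± 0.67 log2 in induced and 8.15 ± 0.84 log2 in control arrays (SD, n = 3 each). Its 95% interval ran from -0.69 to 1.45 log2 without the block and from 0.05 to 0.71 log2 with it. Ankrd37 averaged 7.58 ± 0.49 log2 in induced and 7.27 ± 0.31 log2 in control arrays (SD, n = 3 each), a change of 0.32 ± 0.26 log2 (SE). Adm averaged 6.67 ± 0.34 log2 in induced and 6.36 ± 0.27 log2 in control arrays on its brighter probe set, a change of 0.31 ± 0.20 log2. Bnip3 averaged 11.28 ± 0.75 log2 in induced and 11.05 ± 0.98 log2 in control arrays, a change of 0.23 ± 0.53 log2. These standard errors, from the fit without a block, include the spread between clones. With the clone as a block, the 95% intervals ran from -0.05 to 0.50 log2 (Bnip3), -0.01 to 0.64 log2 (Ankrd37) and -0.07 to 0.69 log2 (Adm). Each of these 4 genes had overlapping induced and control arrays.

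By clone, 13 of 19 probe sets were higher in the induced array of A1 (45.9% of all), 17 in that of A4 (47.9%) and 3 in that of A3 (52.2%). The median changes were 0.27 log2 in A1, -0.05 log2 in A3 and 0.25 log2 in A4, against medians over all probe sets between -0.02 and 0.01 log2. Higher signals in A1 and A4 beside a lower one in A3 were measured for 11, against 13.2% of all, and 1 went in the same direction in the 3 clones, against 21.8%. Each clone gave 1 pair of arrays, so whether the clones differ in their change has no test.

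The changes of at least 0.5 log2 lay in few genes. In A1, 2 probe sets were higher by that much, both of Adm at 0.71 and 0.95 log2, against 2.11% of all, and 0 were lower, against 1.24%. In A4, 3 were higher, those of Egln3 at 0.69 log2 on each probe set and that of Ankrd37 at 0.70 log2, against 0.944%, and 0 were lower, against 1.99%. In A3, 0 were higher, against 0.901%, and 1 was lower, the dimmer probe set of Adm at -0.53 log2, against 0.948%.

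Adm showed the widest disagreement between clones. Its brighter probe set read 6.76 (A1), 6.29 (A3) and 6.95 (A4) log2 in induced arrays, against 6.05, 6.49 and 6.54 log2 in control arrays. Its dimmer one read 6.32, 5.38 and 6.48 log2 in induced arrays, against 5.37, 5.91 and 6.11 log2 in control arrays. On both, the arrays of A1 and A4 were higher after induction and that of A3 lower, and the control array of A1 was as low as, or lower than, the induced array of A3. The intervals of the mean change reached from -0.16 to 0.78 log2 and from -0.46 to 0.98 log2.

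Among the sensing genes, the mean differences on induction of Hif1a, Egln2 and Vhl on their brightest probe sets were smaller than that of Egln3. Hif1a differed by -0.06 log2 on its brightest probe set (95% interval -0.30 to 0.19), Egln2 by -0.01 log2 (-0.22 to 0.20) and Vhl by 0.07 log2 (-0.18 to 0.32). Vegfa differed by 0.10 and -0.07 log2 on its 2 probe sets, which went opposite ways in A1, at 0.27 and -0.30 log2. The 2 probe sets of Egln1 also disagreed in A1, at 0.38 and -0.26 log2, and in A4, at -0.07 and 0.25 log2. P4ha1 differed on induction by 0.41 and 0.49 log2 in A1, by -0.03 and -0.07 log2 in A3 and by 0.11 and 0.39 log2 in A4, so that its probe sets shared a direction in every clone.

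**Figure D4:**
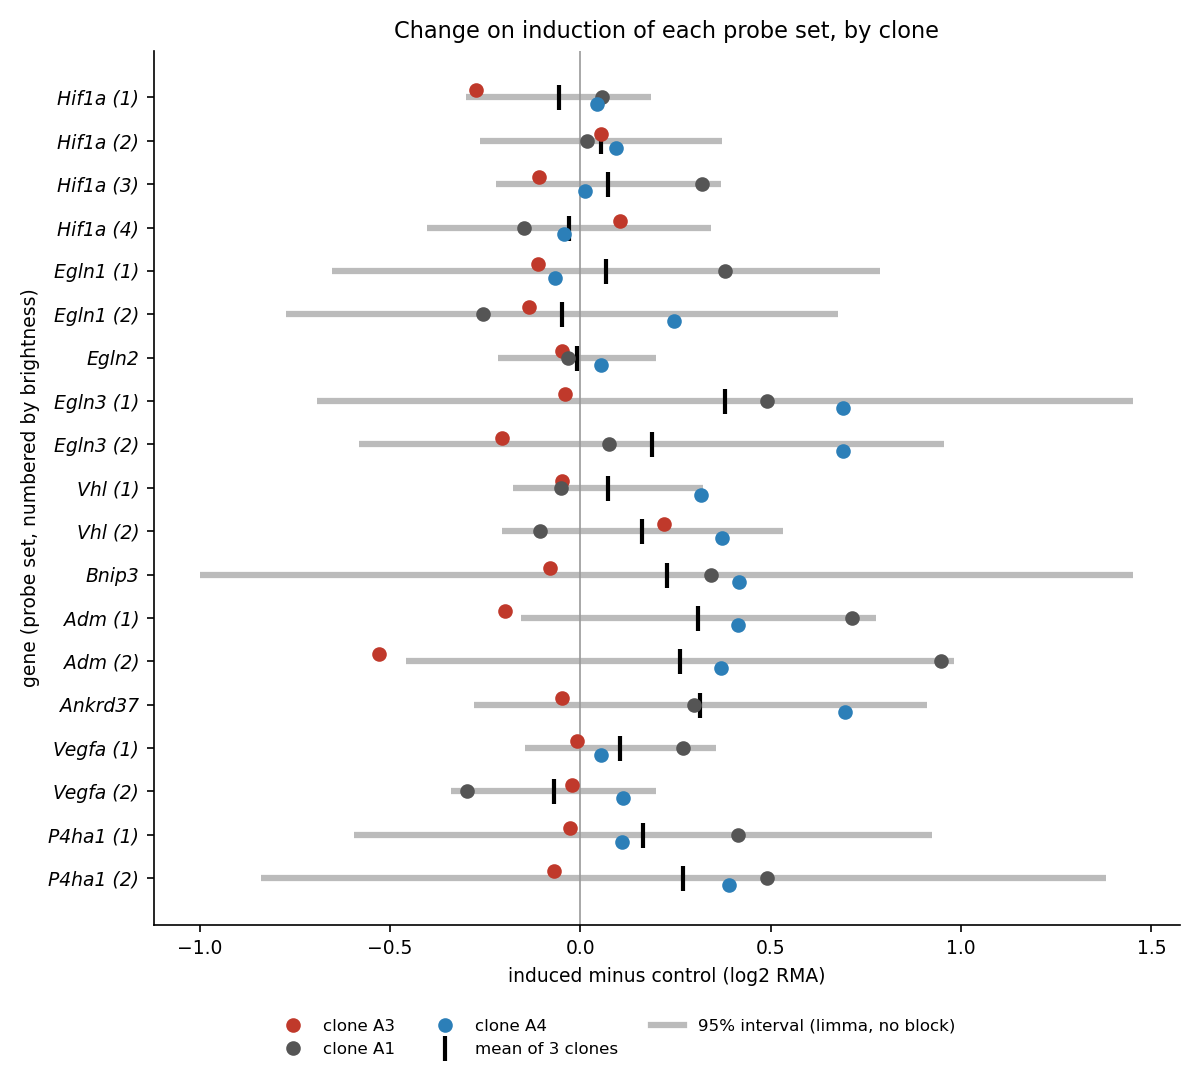
Induced minus control signal in log2 RMA units for each member probe set, with 1 point per clone, a black bar for the mean of the 3 clones and a grey line for its 95% interval from limma without a block. Every interval spans 0, and for Adm the points of A1 and A3 lie farthest apart, at 0.95 and -0.53 log2 on its dimmer probe set.

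Genes that surround these members in the pathway were read from 5 lists holding 83 genes, of which 79 had a probe set with a single symbol and the rest were not analysed here. On induction 0 of the 79 were called by limma, as were 0% of all probe sets, and 0 had an unadjusted p below 0.05, against 1.5%. Of the 79, 45 were higher and 34 lower, against 48.8% of all probe sets higher. Between clones 14 were called by the F test, against 6.84% of all genes, and A3 was called higher for 8, against 5.13%, and lower for 8, against 6.32%.

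Among the HIF subunits and cofactors, 5 of 8 were called by the F test (6.84% of all genes). The contrast of A3 called 1 higher (5.13%) and 5 lower (6.32%), and the median difference of A3 was -0.58 log2, against 0.03 log2 over all probe sets. Epas1, the alpha subunit related to Hif1a, was lower in A3 by 1.60 ± 0.11 log2 (adjusted p = 0.000358). It read 10.63 (A1), 8.71 (A3) and 10.21 (A4) log2 in induced arrays, against 10.51, 8.93 and 10.31 log2 in control arrays, so both arrays of A3 lay far below the rest. Ep300, the acetyltransferase that HIF recruits, differed in A3 by -1.14 ± 0.13 log2 (adjusted p = 0.00233). Cited2, which competes with HIF for Ep300, differed by -0.68 log2, and Arnt, the beta subunit, by 0.58 log2 (adjusted p = 0.0103 and 0.0139). In A3, the clone with the highest Bnip3 and P4ha1, the signal of Epas1 was lowest and that of Hif1a was not called.

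The list of the VHL ubiquitin ligase and of the turnover of HIF and its hydroxylases held 10 genes. Of these, 0 were called between clones by the F test (6.84% of all genes), and A3 differed by a median of 0.08 log2. Of 35 further HIF targets in mitochondria, autophagy and growth control, 6 were called by the F test (6.84% of all genes), with A3 called higher for 6 (5.13%) and lower for 1 (6.32%) and a median difference of 0.23 log2. Ak4, a mitochondrial adenylate kinase, was higher in A3 by 1.02 ± 0.10 log2, the carbonic anhydrase Car12 by 0.89 ± 0.10 log2, the respiratory chain protein Ndufa4l2 by 0.75 ± 0.13 log2 and the secreted glycoprotein Stc2 by 0.70 ± 0.11 log2 (adjusted p = 0.00157, 0.00242, 0.0110 and 0.00918). The probe set of Car12 was dim, with a mean of 4.59 log2. Ak4 read 8.81 (A1), 10.05 (A3) and 9.42 (A4) log2 in induced arrays, against 8.53, 10.01 and 9.29 log2 in control arrays, an order of clones without overlap like that of Bnip3.

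Of 15 angiogenic factors and receptors, 2 were called by the F test (6.84% of all genes). Nrp2, a co-receptor of VEGF family ligands, was higher in A3 by 2.60 ± 0.13 log2, and the ligand Vegfc differed by -1.05 ± 0.15 log2 (adjusted p = 9.1e-05 and 0.00553). The median of that list was 0.00 log2. The list for collagen hydroxylation and crosslinking held 11 measured genes, of which 1 was called by the F test (6.84% of all genes). That was P4htm, a transmembrane prolyl hydroxylase placed in this list, at -0.57 log2 in A3. In this list 0 genes were called higher in A3 (5.13%) and 1 lower (6.32%).

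**Figure D5:**
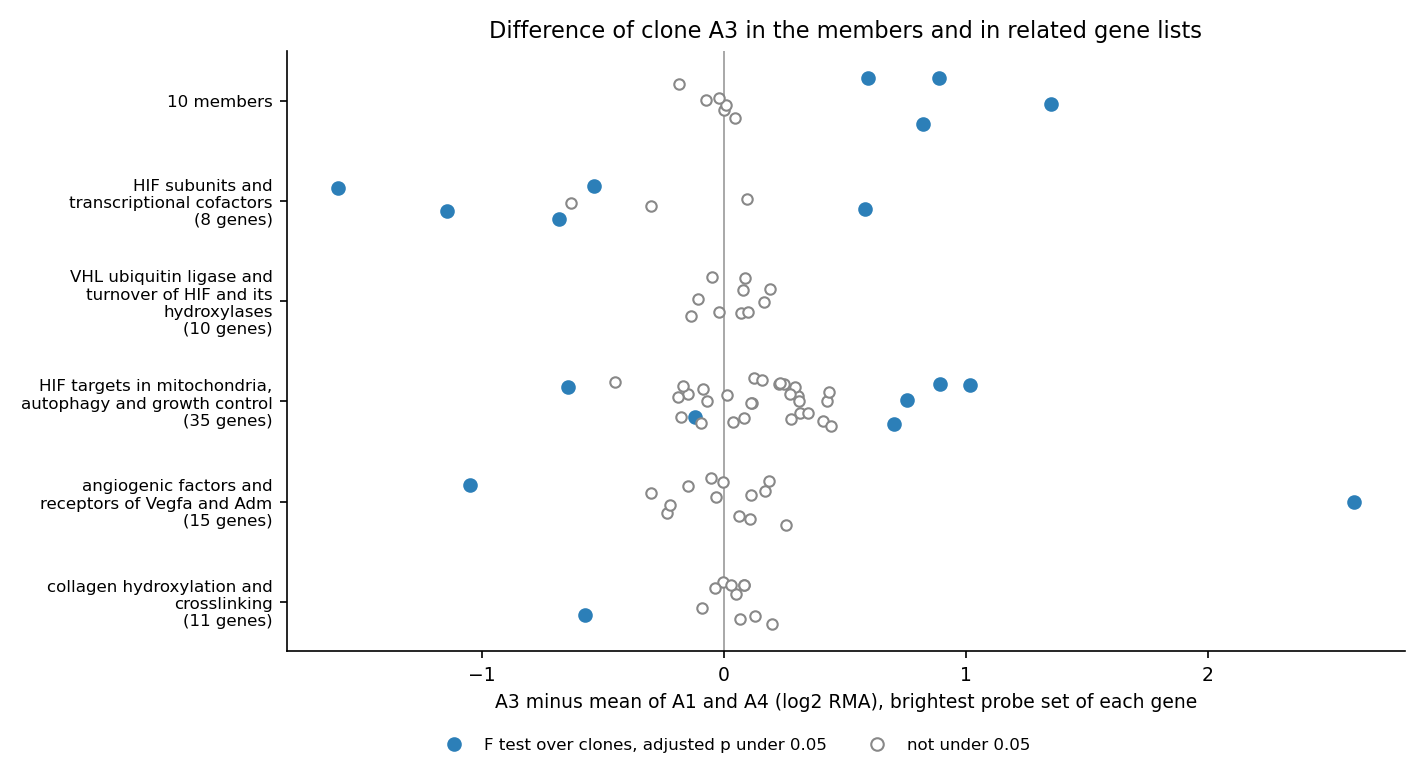
Difference of A3 from the mean of A1 and A4 in log2 RMA units for the brightest probe set of each member and of each gene in 5 related lists, filled where the F test over clones had an adjusted p under 0.05 (points are spread vertically only for legibility). Filled points of the HIF subunits and cofactors lie mostly below 0, down to -1.60 for Epas1, while 4 members and Nrp2 lie above it.

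Among 9737 genes with a mean of at least 6 log2, likeness to a member was measured as the root mean square difference of profiles over the 6 arrays, each centred on its own mean. Nearest to Bnip3 were Anxa2 (0.14 log2), Trh (0.17 log2) and Acot1 (0.18 log2). Nearest to Egln3 were Ndufa4l2 and Aldoc (0.12 log2 each) and Prelid2 (0.18 log2). Ndufa4l2 read 7.86 (A1), 9.11 (A3) and 9.18 (A4) log2 in induced arrays, against 7.66, 9.04 and 8.58 log2 in control arrays. As with Egln3, its induced array of A4 was level with those of A3 and both arrays of A1 were lowest. That likeness follows from how it was picked, by the nearest profile, and is not a separate result.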

How the data were processed

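RNA of 6 cultures was hybridised to Affymetrix whole-genome mouse arrays. The deposited values are log2 signals that the authors made by robust multiarray averaging (RMA) in the affy package of Bioconductor (version not given in the sources used). RMA pools all arrays and compresses changes of dim probe sets. The array's 64 control probe sets were not tested. Of the 45037 tested, the platform annotation gave 34945 a single symbol, 932 several and 9160 none, and none was named from several. Groups, clones and replicate numbers came from the sample labels.

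Conditions were compared with limma 3.58.1 in R 4.3.3 without a block, because the methods state a t-test on RMA values and no block. Clones were compared in a fit of condition and clone, by an F test and the contrasts of A3 with the mean of A1 and A4 and of A1 with A4. Contrasts were two-sided, and all tests were adjusted over all probe sets by the method of Benjamini and Hochberg with a threshold of 0.05. The test of induction without a block and the contrast of A3 were tried on simulated data. These held only the changes put in and no other differences between clones. Alternatives varied the block, the scaling, the dim filter, the variance model, the probe set of a gene and the arrays included. Labels do not say whether the 2 arrays of a clone were grown in parallel, so p-values measure only the spread between these samples. Same-numbered arrays come from the same clone and so pair. Their deviations from the group means correlated at r = 0.31 (A1), 0.67 (A3) and 0.29 (A4), but the induced array of A1 correlated at 0.37 with the control array of A4. The brightest probe set (highest mean) stood for a gene.

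All member probe sets were named, and from each related list at most 4 genes called by the F test with the largest difference of A3. The members, lists and tests were chosen with earlier results of these data known. Sequences and starts came from RefSeq (GRCm38.p6), and all 10 genes matched. Python 3.11.15 and matplotlib 3.10.9 were used for plots.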

Additional observations from a re-analysis of the deposited data

Results flagged for a closer look

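The dimmer probe set of Adm differed in opposite directions on induction, by 0.9476 log2 in A1 and by -0.5304 log2 in A3. It is listed because the induced and control arrays of these clones differed by at least 0.5 log2 in opposite directions, and that difference was not tested, since each clone has 1 pair of arrays. No group held the 4 samples needed to look for a single outlying array.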

How the results depend on the processing

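With the clone as a replicate block, 0 probe sets and 0 members were called on induction, as without it, and the block changed no call. By limma, 676 probe sets had an unadjusted p below 0.05. The methods' t-test called 0 after Benjamini-Hochberg adjustment and 1096 before it. Neither set held a member. The scaling, filter, variance and probe set alternatives kept each member's direction except for values near 0. With array medians subtracted, the change of Egln2 was 0.0152 log2 and the differences of A3 were -0.0294 (Vhl) and -0.0238 log2 (Ankrd37), and with quantile normalization again that of Vegfa was 0.000583 log2. A further threshold of 1 log2 on the largest difference of clone means left 713 probe sets and 4 members called by the F test. On the contrast of A3 itself it left 2 members. With control replicate 3 and induced replicate 1 both left out, the median member change was 0.29 log2, and the clone tests could not be fitted. Over fits that left out 1 array or 1 clone, 8 to 2724 probe sets and 0 to 8 members were called by the F test and 3 to 7 members in the contrast of A3. Changes on induction then ranged from -0.115 to 0.0507 log2 (Hif1a), -0.28 to 0.31 (Egln1), -0.0505 to 0.0156 (Egln2), -0.0615 to 0.781 (Egln3), -0.0504 to 0.134 (Vhl), -0.21 to 0.75 (Bnip3) and -0.14 to 0.49 log2 (P4ha1), and the median member change from -0.03 to 0.26 log2. Differences of A3 ranged from -0.237 to 0.0875 log2 (Hif1a), -0.0907 to 0.0932 (Vhl), -0.57 to 0.20 (Adm), -0.35 to 0.37 (Ankrd37), -0.108 to 0.0694 (Vegfa), 0.26 to 0.93 (Egln1), 0.36 to 1.42 (Egln3), 0.62 to 1.03 (P4ha1) and 0.99 to 1.72 log2 (Bnip3). Fits with fewer arrays have less power, and the cause of these shifts was otherwise not tested. The contrast of A3 has no value without both arrays of A3, nor that of A1 with A4 without either clone. Changes of the size seen here in A1 and A4 lie within the intervals of the mean change from the test without a block (6 arrays, 1 pair a clone). With the clone as a block, some lie above the interval of the mean change. Adm in A1 differed by 0.95 log2 on its dimmer probe set (upper limit 0.81) and Ankrd37 in A4 by 0.70 log2 (upper limit 0.64). Both kinds of interval are of the mean over the clones, so they do not tell whether the change of 1 clone is unusual.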
